A study of Arabidopsis thaliana with 4 samples.

Results

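The PYR/PYL proteins are the soluble receptors of abscisic acid, the plant hormone of drought and osmotic stress. Transcripts of 9 of them were followed in leaves and leaf protoplasts of Arabidopsis thaliana: PYR1 (AT4G17870), PYL1 (AT5G46790), PYL2 (AT2G26040), PYL4 (AT2G38310), PYL5 (AT5G05440), PYL6 (AT2G40330), PYL7 (AT4G01026), PYL8 (AT5G53160) and PYL9 (AT1G01360). The members were taken by locus, and all 9 have a row among the 24904 loci of the count table. Whole leaf and leaf protoplast had 2 libraries each, all from wild type Col-0 plants of 6 weeks kept at 8 h of light and 16 h of darkness. To make protoplasts, fully developed leaves were stripped of the lower epidermis with tape, cut beside the main vein and shaken for 2 h with cellulase and macerozyme in 0.6 M mannitol, several leaves to a dish, before filtering and washing. Leaf RNA came from leaves without this isolation, so wounding, digestion, osmotic change, time and loss of cell types come together in the comparison and cannot be told apart. The labels call the libraries biological replicates without naming plants or days, and p-values therefore cover no more than the spread within these pairs of libraries, which could be technical.

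Abscisic acid binds in a pocket of the receptor, and a loop called the gate then closes over it. The closed receptor blocks the active site of clade A protein phosphatases 2C, which frees the SnRK2 kinases from inhibition and lets them phosphorylate transcription factors of the ABF group and guard cell anion channels. The family falls into subfamily III (PYR1 and PYL1 to PYL3), whose best studied proteins form homodimers without the hormone, and subfamilies II (PYL4 to PYL6 and PYL11 to PYL13) and I (PYL7 to PYL10), whose proteins are mostly monomers. In leaves the receptors are best known for their part in closing stomata.

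The members are paralogs. To show how alike their sequences are, the coding stretch around the gate is printed for 3 pairs of relatives within a subfamily. The transcripts of each pair differed in the direction or the size of their change, and PYL7 and PYL9 both rose. Each line holds 51 bases of RefSeq coding sequence (assembly TAIR10.1, looked up by locus), 5′ to 3′, with the 15 bases that code for the gate loop in capitals.
PYR1: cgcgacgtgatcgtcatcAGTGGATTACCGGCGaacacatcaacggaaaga
PYL1: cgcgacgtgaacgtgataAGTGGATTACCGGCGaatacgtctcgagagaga
PYL4: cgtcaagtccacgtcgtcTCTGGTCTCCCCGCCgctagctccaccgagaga
PYL5: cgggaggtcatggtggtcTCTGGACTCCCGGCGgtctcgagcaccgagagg
PYL7: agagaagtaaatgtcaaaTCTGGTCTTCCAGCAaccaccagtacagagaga
PYL9: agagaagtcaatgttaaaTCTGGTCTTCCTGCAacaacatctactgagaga

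Within these 51 bases PYR1 differed from PYL1 at 10 positions, PYL4 from PYL5 at 18 and PYL7 from PYL9 at 8. Across all 9 members the 15 loop bases occurred in 8 different codings. Over the whole coding sequence PYL7 and PYL9 were the most alike of the 36 pairs of members, with 80.3% identical aligned bases, and the other pairs ranged down to 55.9%. The longest run of identical bases shared by the transcripts of any pair of members was 32, against reads of 150 bases. The gene models of PYL7, PYL8 and PYL9 have 3 exons and those of the other 6 members have 1.

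Of the 8 members with enough counts for the test, 3 rose in protoplasts (PYL5, PYL7 and PYL9), 3 fell (PYL1, PYL2 and PYL4) and 2 were not called (PYR1 and PYL8), by edgeR's quasi-likelihood test with an adjusted p under 0.05 over all genes. Of the 20200 genes tested, 39.8% rose and 40.7% fell, so the members' 3 of 8 in each direction is near the background. At least 2-fold higher were 2 members and at least 2-fold lower 2, against 22.1% and 19.7% of all tested genes. The leaf and protoplast libraries did not overlap for 7 of the 8 members, as for 90.3% of all tested genes. The median log2 fold change, protoplast minus leaf, was 0.02 for the 8 members and -0.04 for all tested genes. PYL6 did not pass the filter on low counts. PYL2 passed it through the leaf libraries alone, so that its place among the genes that fell is a description and no support.

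The direction of the members near 0 depended on the scaling between libraries. With upper-quartile factors or library size only in place of TMM factors, the median over all tested genes moved to -0.37 or -0.85, and the share of calls that were higher moved from 49.4% to 35.9% or 23.5%. Levels below are CPM, which are counts divided by the TMM-scaled library size, and fold changes are log2, protoplast minus leaf. The leaf libraries totalled 42121436 and 43685947 counts and the protoplast libraries 48503141 and 39958035.

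**Figure D1:**
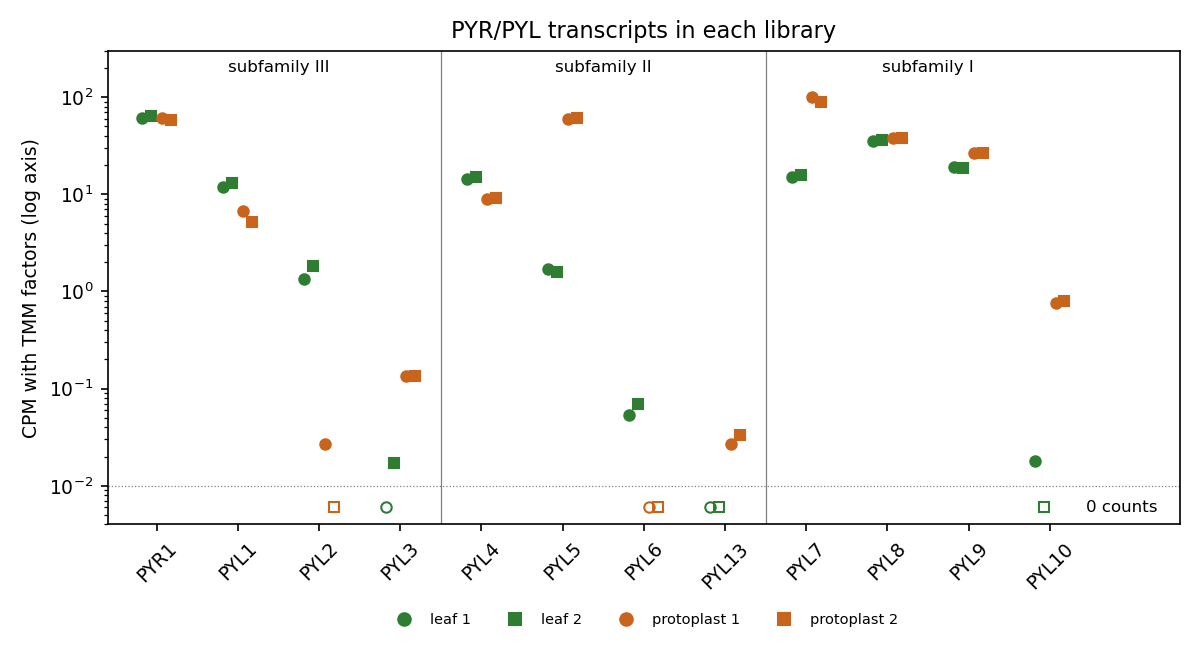
CPM with TMM factors (log axis) of each PYR/PYL gene with a row in the count table, 1 point per library, leaf in green and protoplast in orange, grouped by subfamily; open symbols at the bottom are libraries with 0 counts. PYL5 lies at 1.69 and 1.59 CPM in leaf and at 60.0 and 60.7 CPM in protoplasts, PYL2 goes the other way, and the points of PYR1 overlap.

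In subfamily III, PYL1 and PYL2 fell and PYR1 was not called. PYR1, the receptor found through resistance to the synthetic agonist pyrabactin, stood at 60.3 and 64.5 CPM in leaf and at 61.5 and 58.7 CPM in protoplasts. The groups overlapped, and the log2 fold change of -0.05 ± 0.06 (SE) was not past the threshold (edgeR, adjusted p = 0.389). Upper-quartile factors made PYR1 a called fall (-0.38, adjusted p = 4.36e-05), as did library size only (-0.86, adjusted p = 5.14e-10), while scaling to 10 reference genes gave 0.02 without a call.

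PYL1, the member closest to PYR1 in coding sequence, stood at 11.8 and 13.2 CPM in leaf and at 6.81 and 5.21 CPM in protoplasts. Both protoplast libraries lay below both leaf libraries. The log2 fold change was -1.04 ± 0.12 (SE), a 2.06-fold fall (edgeR, adjusted p = 4.83e-06). PYL1 was called lower in all 12 alternative analyses, from -0.88 without protoplast replicate 2 to -1.84 with library size only. The ratio of PYL1 to PYR1 counts within a library does not depend on scaling, and it was 0.195 and 0.204 in leaf and 0.111 and 0.0889 in protoplasts.

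PYL2, which work on Arabidopsis mutants links to the abscisic acid response of guard cells, was nearly absent after isolation. Leaf libraries held 74 and 105 counts of it, or 1.33 and 1.82 CPM, and protoplast libraries 1 and 0. From pooled counts PYL2 was 106-fold lower in protoplasts, with an exact 95% interval of 18.7 to 4200 that covers counting error only. No p is given, because PYL2 entered the test only through the group where it is high. The fitted log2 fold change, which is no bound, went from -9.24 without protoplast replicate 1, when no protoplast count was left, to -5.74 without protoplast replicate 2.

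Markers of cell types other than mesophyll were lower beside PYL1, PYL2 and PYL4. All 8 guard cell genes listed fell, with a summed level of 334.6 and 338.4 CPM in leaf and 5.89 and 5.88 CPM in protoplasts. Most of this sum was 1 gene, CYP86A2, at 288.2 and 290.6 CPM in leaf and 3.08 and 3.24 CPM in protoplasts. The log2 fold changes of the 8 genes ranged from -11.02 to -2.44, and the anion channel gene ALMT12 was at 0 in both protoplast libraries. The 8 epidermis genes, of which all 7 tested fell, summed to 1106 and 1107 CPM in leaf and to 9.88 and 10.3 CPM in protoplasts, with CER4 and PDF1 at 0. All 8 phloem genes fell, from sums of 1201 and 1247 CPM to 34.5 and 34.2 CPM, none of them at 0. All 8 xylem genes fell, from sums of 71.4 and 79.6 CPM to 2.05 and 2.57 CPM, with VND7 at 0. In this list 1 gene, PHO1, held 33.8 and 36.7 CPM of the leaf sums. Markers with few or no protoplast counts entered the test through leaf alone, so their falls are a description. Mesophyll markers were abundant in both groups, summing to 51000 and 51400 CPM in leaf and 73580 and 74880 CPM in protoplasts; all 8 were called higher, but with library size only 1 was higher and 6 were lower. The part of these cell types in the receptor values was not tested, and in bulk RNA fewer cells of a type and less RNA per cell cannot be told apart.

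In subfamily II, PYL4 fell and PYL5 rose. PYL4, which like PYL5 has been tied to jasmonate and to stomatal closure, stood at 14.4 and 15.0 CPM in leaf and at 8.91 and 9.16 CPM in protoplasts. The groups did not overlap, and the log2 fold change was -0.70 ± 0.08 (SE), a 1.63-fold fall (edgeR, adjusted p = 6.49e-06). PYL4 was called lower in all 12 alternative analyses, from -0.63 with reference gene scaling to -1.51 with library size only.

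PYL5 showed the greatest rise of the 9 members. Its counts were 94 and 92 in leaf against 2220 and 1817 in the protoplast libraries, which is 1.69 and 1.59 CPM against 60.0 and 60.7 CPM. Each protoplast library was far above each leaf library, and replicates lay close together. The log2 fold change was 5.20 ± 0.08 (SE), a 36.7-fold rise (edgeR, adjusted p = 1.17e-14), and it ranged from 4.39 to 5.27 over the 12 alternatives. Within a library, the ratio of PYL5 to PYL4 counts was 0.117 and 0.107 in leaf and 6.73 and 6.63 in protoplasts, a 59.8-fold difference that no scaling can change. Against PYR1, the ratio was 0.0280 and 0.0247 in leaf and 0.975 and 1.04 in protoplasts.

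PYL6, which binds the jasmonate regulator MYC2, was at the edge of detection, with 3 and 4 counts in leaf (0.0538 and 0.0693 CPM) and 0 in both protoplast libraries, where 3 counts would be 0.0810 and 0.100 CPM. No fold is given, because the leaf level is below that limit.

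In subfamily I, PYL7 and PYL9 rose and PYL8 was not called. Counts of PYL7 were 836 and 907 in leaf against 3719 and 2696 in the protoplast libraries, or 15.0 and 15.7 CPM against 100.4 and 90.1 CPM. Every protoplast value was above every leaf value, and the log2 fold change was 2.63 ± 0.07 (SE), a 6.21-fold rise (edgeR, adjusted p = 1.4e-12) that ranged from 1.83 to 2.71 over the 12 alternatives. In the reference annotation PYL7 overlaps AT4G01030 and AT4G03845, both on the other strand, and as the strand setting of the counting is unknown their reads may not be separate. AT4G01030 held 257 and 248 counts in leaf against 126 and 97 in the protoplast libraries, and AT4G03845 held 6 and 4 against 11 and 3.

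PYL8, known from roots for sustaining lateral root growth, stood at 35.5 and 35.8 CPM in leaf and at 38.1 and 37.8 CPM in protoplasts. Although the groups did not overlap, the log2 fold change of 0.09 ± 0.06 (SE) was not past the threshold (edgeR, adjusted p = 0.152). Upper-quartile factors gave a call in the lower direction (-0.24), as did library size only (-0.71), whereas reference gene scaling gave a call in the higher direction (0.165, adjusted p = 0.0197).

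PYL9, which has been linked to drought survival and leaf senescence, stood at 18.9 and 18.6 CPM in leaf and at 26.4 and 26.6 CPM in protoplasts. Both protoplast libraries were above both leaf libraries, by 0.50 ± 0.06 (SE) on the log2 scale or 1.41-fold (edgeR, adjusted p = 1.41e-05), but with library size only PYL9 was called lower, at -0.31. The members of this subfamily did not keep their proportions within a library. The ratio of PYL7 to PYL8 counts was 0.423 and 0.439 in leaf and 2.64 and 2.38 in protoplasts. The ratio of PYL7 to PYL9, the pair with the most similar coding sequences, was 0.794 and 0.843 in leaf and 3.80 and 3.39 in protoplasts. The ratio of PYL9 to PYL8 moved less, from 0.533 and 0.521 to 0.694 and 0.702.

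**Figure D2:**
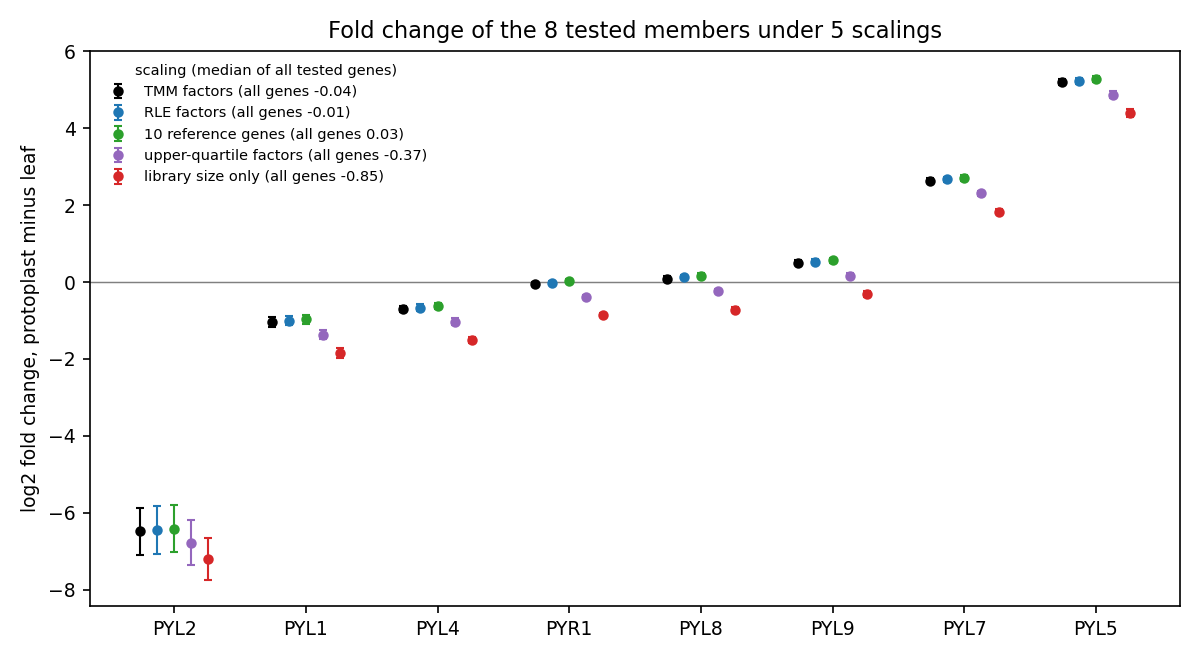
Log2 fold change (protoplast minus leaf) of the 8 tested members from edgeR fits with 5 scalings; points are estimates, bars are 1 SE, and the legend gives the median of all tested genes under each scaling. PYL2, PYL1 and PYL4 stay below 0 and PYL7 and PYL5 above 0 under each of the 5, while PYR1, PYL8 and PYL9 cross 0. PYL2 held 1 and 0 protoplast counts and passed the filter through leaf alone, so its side of 0 says nothing of stability.

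The other 5 genes of the family were scarce. PYL10, of subfamily I, which can inhibit phosphatases without the hormone in vitro, held 1 and 0 counts in leaf against 28 and 24 in the protoplast libraries, and passed the filter through the protoplasts alone. From pooled counts it was 88.1-fold higher, with an exact 95% interval of 15.1 to 3550, at a protoplast level of 0.756 and 0.802 CPM, and no p is given for the same reason as for PYL2. Its fitted log2 fold change went from 5.21 without leaf replicate 2 to 8.02 without leaf replicate 1, when no leaf count was left. PYL3 held 0 and 1 counts in leaf against 5 and 4, a ratio of 15.2 with an interval of 2.11 to 668, and was not tested because of its low counts. PYL13 held no counts in leaf and 1 in each protoplast library. PYL11 and PYL12 have no row in the count table and were not analysed here.

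Levels of different members were compared per length, as CPM per kilobase of coding sequence. In leaf the order of these levels was PYR1 (108.4), PYL8 (62.9), PYL9 (33.3), PYL7 (24.2), PYL4 (23.5), PYL1 (18.7), PYL2 (2.75), PYL5 (2.68) and PYL6 (0.0950). The libraries overlapped for the neighbours PYL7 and PYL4 and for PYL2 and PYL5, so these cannot be ordered. In protoplasts the order was PYL7 (149.8), PYR1 (104.3), PYL5 (98.6), PYL8 (66.9), PYL9 (47.0), PYL4 (14.5) and PYL1 (9.02), with no overlap between neighbours, and PYL2 (0.0236) and PYL6 (0) came last and overlapped. With transcript length in place of coding length, an alternative chosen after seeing the data, PYL7 stood above PYL4 in leaf without overlap, and PYL9 above PYL8 in protoplasts (22.5 against 21.7 CPM per kilobase).

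The make-up of the receptor transcripts differed between leaf and protoplast, and shares within a library do not depend on the scaling. PYR1 took 38.8% and 39.6% of the summed level per coding kilobase in leaf and 21.3% in each protoplast library. PYL7 took 8.73% and 8.75% in leaf and 31.5% and 29.6% in protoplasts. PYL5 took 1.02% and 0.922% in leaf and 19.5% and 20.7% in protoplasts. By subfamily, III took 46.2% and 47.8% in leaf and 23.4% and 22.9% in protoplasts. Subfamily II took 9.59% and 9.45% in leaf and 22.4% and 23.8% in protoplasts, and subfamily I took 44.3% and 42.8% in leaf and 54.3% and 53.3% in protoplasts. None of these shares overlapped between the groups, but neither did the CPM of 90.3% of all tested genes. Groups of 2 allow no exact two-sided permutation p below 0.333. Shares add up to a whole, so larger shares of PYL5 and PYL7 leave less for the other members. With TMM factors the mean level of PYR1 was 108.4 CPM per coding kilobase in leaf and 104.3 in protoplasts.

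**Figure D3:**
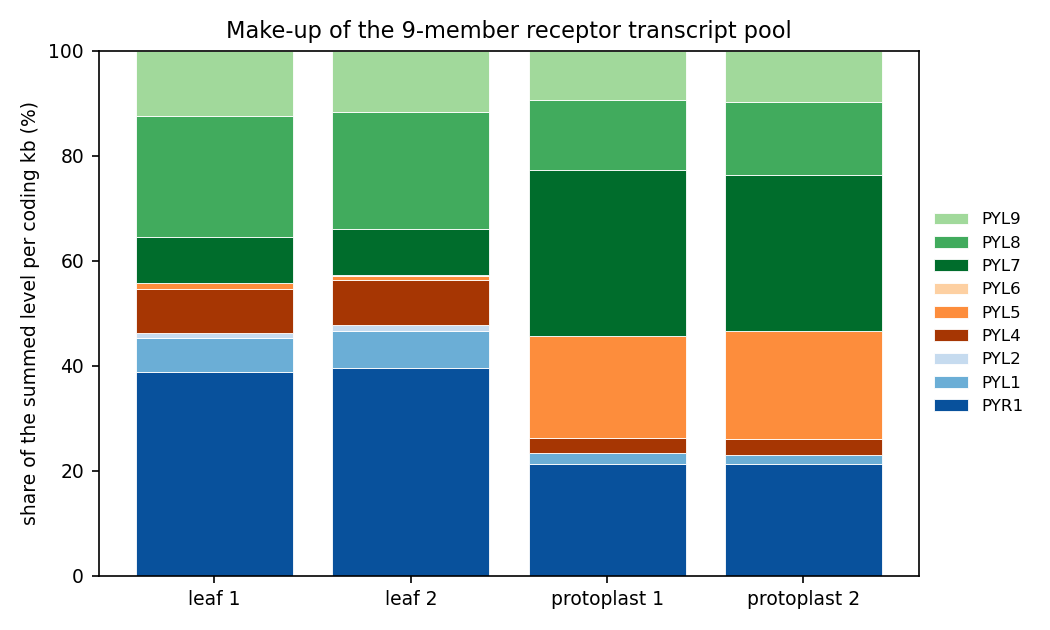
Share (%) of each of the 9 members in their summed CPM per coding kilobase, 1 bar per library, blue for subfamily III, orange for II and green for I. PYR1 is the widest band in both leaf libraries at 38.8% and 39.6%, and PYL7 in both protoplast libraries at 31.5% and 29.6%.

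The summed level of the 9 members was 270.3 and 282.6 CPM per coding kilobase in leaf and 501.2 and 479.1 in protoplasts, a ratio of 1.77 ± 0.0793 (SD, from the spread of 2 libraries in each group). Upper-quartile factors gave a ratio of 1.41 and library size only gave 1.01, while RLE factors gave 1.82 and reference gene scaling 1.87. Without PYL5 and PYL7, left out after their values were seen, the sum was 244.0 and 255.3 in leaf and 245.3 and 238.2 in protoplasts. This was a ratio of 0.968, which became 0.554 with library size only and 1.02 with reference gene scaling.

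The genes most like the members at both ends were found by the Euclidean distance of log2 CPM over the 4 libraries. Nearest to PYL5 were AT5G63290, AT5G38710 and SRO2, at distances of 0.353, 0.394 and 0.414. Nearest to PYL2 were AT1G49310, CAD3 and NAC075, at distances of 0.0232, 0.156 and 0.365, each with 1 and 0 counts in the protoplast libraries. Over 4 libraries in 2 groups this measure says little more than that level and fold change are alike.

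The pathway around the receptors moved in both directions as well, and its counts stand beside the 39.8% and 40.7% of all tested genes. NCED9, ABCG40, CAR4 and ABI5 passed the filter through the protoplasts alone, and SNRK2.5, SNRK2.7 and LTP4 through leaf alone. As for PYL2, their place in these counts is a description and no support. Of 7 tested genes of abscisic acid synthesis, 3 rose and 2 fell, but with library size only 2 were higher and 5 lower. NCED3, the cleavage dioxygenase of leaves under drought, rose from 18.6 ± 0.440 to 77.5 ± 1.38 CPM (mean ± SD, n = 2), and NCED9, of the same family, held 1 count in each leaf library against 259 and 212 after isolation. Of 8 genes of catabolism, conjugation and release from the conjugate, 4 rose and 4 fell, against 2 higher and 5 lower with library size only. The genes of release, BGLU18 and BGLU33, were among those that fell, by 0.77 and 3.67 on the log2 scale. Among the hydroxylase genes CYP707A4 rose by 1.45 on the log2 scale and CYP707A2 fell by 1.90. Of 6 transporters of the hormone, 2 rose and 3 fell. The importer gene ABCG40 rose from 0.168 ± 0.0166 to 141.7 ± 3.77 CPM (n = 2). DTX50, the other transporter gene that rose, went from 6.64 ± 0.537 to 306.7 ± 0.117 CPM (n = 2). ABCG31 and NPF4.6 fell by 3.33 and 0.75 on the log2 scale, and the list was not split by direction of transport. ABCG25, an exporter gene of vascular tissue, fell from 16.9 ± 1.53 to 4.34 ± 0.525 CPM (n = 2). The phloem and xylem markers above were lower too, with median log2 fold changes of -4.61 and -5.21 against -1.97 for ABCG25. The part of these tissues in the ABCG25 value was not tested.

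Of 10 tested genes whose proteins recruit receptors to membranes, phosphorylate them or lead them to breakdown, 8 rose and 1 fell, but with library size only 3 were higher and 5 lower. VPS23A, an ESCRT component that sends receptors to the vacuole, rose from 31.9 ± 1.22 to 118.3 ± 8.51 CPM (n = 2). CARK1, a kinase that phosphorylates receptors, rose from 56.0 ± 1.01 to 111.6 ± 1.43 CPM (n = 2). CAR4, a C2-domain protein that brings receptors to the membrane, held no counts in leaf against 74 and 51 after isolation. DET1, of the complex that ubiquitinates receptors, fell by 0.31 on the log2 scale, a call that was lost without leaf replicate 2.

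Among the phosphatases that the receptors inhibit, 4 of 7 tested rose and 3 fell, but with library size only 2 were higher and 5 lower. ABI1 rose from 125.4 ± 0.480 to 422.0 ± 25.4 CPM (n = 2), and HAB1 fell from 256.6 ± 5.53 to 120.0 ± 1.60 CPM (n = 2). Of 9 tested SnRK2 kinases, 1 rose and 7 fell. OST1, the kinase of stomatal closure, fell from 18.1 ± 0.321 to 11.3 ± 1.13 CPM (n = 2). Its log2 fold change was -0.68, beside -0.67 for SNRK2.1, -0.64 for SNRK2.2 and a median of -5.99 for the guard cell markers. The part of guard cells in the OST1 value was not tested. SNRK2.4 was the member called higher, at 0.25 ± 0.05 (SE), and with upper-quartile factors or library size only its value was below 0. Of 6 ABF and ABI5 bZIP factors, 4 fell and 1 rose, ABI5, which passed the filter through the protoplasts alone. ABF3 fell from 189.3 ± 0.434 to 66.0 ± 2.32 CPM (n = 2), and ABI5, best known from seeds, rose from 0.167 ± 0.00835 to 2.02 ± 0.309 CPM (n = 2).

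The 15 listed genes that respond to abscisic acid were split, with 7 higher and 7 lower. RD26, a NAC factor, rose from 45.9 ± 0.495 to 841.4 ± 22.6 CPM (n = 2), and AT3G02480 rose from 0.203 ± 0.0175 to 141.0 ± 22.9 CPM (n = 2). RD22, a dehydration gene, fell from 1017 ± 8.97 to 7.01 ± 0.0173 CPM (n = 2). The lipid transfer protein gene LTP4 fell from 330 and 391 counts to 2 and 0, beside the epidermis markers. Whether the lower cell type markers have a part in these values was not tested.

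**Figure D4:**
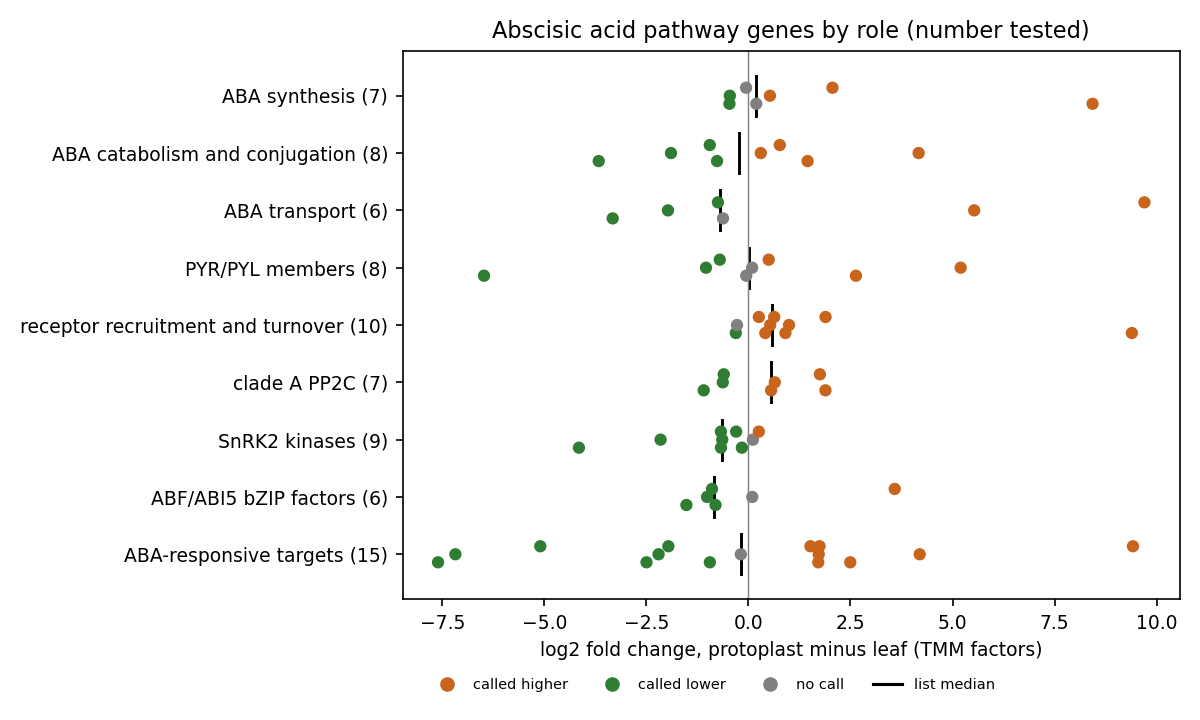
Log2 fold change (protoplast minus leaf, TMM factors) of each tested gene of the abscisic acid pathway, by role, with the number tested in brackets; orange and green points are called higher and lower, grey points are not called, and the bar is the list's median. Every list has called genes on both sides of 0, with medians from -0.85 for the bZIP factors to 0.58 for receptor recruitment and turnover. For the bZIP factors the higher side is ABI5 alone, which passed the filter only through the protoplasts. With library size only the SnRK2 list has 0 called higher.

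For the members, the authors' deposited table gave log2 fold changes of 5.22 for PYL5 and 2.65 for PYL7, and of -1.03 for PYL1, -6.70 for PYL2 and -0.68 for PYL4. In the authors' deposited table PYR1, PYL6 and PYL8 had adjusted p-values of 0.735, 0.304 and 0.285, and PYL9 was higher with 6.89e-06.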

How the data were processed

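RNA with poly(A) tails from 2 leaf and 2 protoplast libraries was prepared with a strand-keeping kit and read in pairs of 150 bases, per the labels' protocols and the series' design text. The deposited table holds raw counts per locus, and its rows sum to 2 or more. Per the submitters' processing notes, the tools included STAR and DESeq, with no version stated. Genome build, annotation, counting tool and its strand option were not given in the sources consulted, so no coordinates are printed. The second table, of the authors' own comparison, has a mean normalized signal, the log2 fold change and SE, the test's score and p-values, per the file headers. DESeq2 1.42.0 run on the deposited counts came within 6.52e-09 of its log2 fold changes.

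All loci were fitted in edgeR 4.0.16 under R 4.3.3 (quasi-likelihood F test, group as the only term, TMM factors, filterByExpr, Benjamini-Hochberg adjustment over 20200 genes, threshold 0.05), with 4704 loci set aside by the filter. An SE is the size of the log2 fold change over the square root of F. Replicates differed beyond sampling noise (chi-square per degree of freedom 5.38 in leaf and 11.1 in protoplasts). A count of 0 was read as at most 3 counts per library. Intervals and such limits cover counting error only, because the reads carry no molecular identifiers.

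Lengths, overlaps and sequences are from RefSeq's annotation of TAIR10.1, matched by locus tag (24651 of 24904 loci), and identities from global alignments with Biopython 1.88. Of 139 listed genes 127 carry the listed symbol there, and the other 12 were taken by locus. The members and lists were chosen with earlier results of these data known. The named genes are all PYR/PYL genes, any gene of lists of 10 or fewer, and from longer lists the 2 called genes at each end and the one with the highest mean CPM. For markers only counts, sums, medians, ranges, genes at 0 and the highest gene of the guard cell and xylem lists are given. Fits were tested on simulated data. Alternatives were other scalings, no filter, DESeq2, limma-voom 3.58.1, a replicate block and leaving out each library.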

Additional observations from a re-analysis of the deposited data

How the results depend on the processing

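PYL1, PYL4, PYL5 and PYL7 kept their direction and call under all 12 alternatives: RLE, upper-quartile, library size only and reference gene scaling, no filter, DESeq2, limma-voom, the replicate block, and leaving out each of the 4 libraries, where the lone library is assumed to vary like the other group. With library size only, 4326 genes were higher and 14057 lower against 8036 and 8231 with TMM factors, PYL8 and PYL9 turned to -0.71 and -0.31, PYR1 was called at -0.86, and 6 members were lower (median -0.79). With library size only, genes of catabolism, conjugation and release had 2 higher and 5 lower, and synthesis genes 2 higher and 5 lower. Under the same setting phosphatases had 2 higher and 5 lower, receptor recruitment genes 3 higher and 5 lower, and SnRK2 genes 0 higher. With upper-quartile factors PYL8 turned to -0.24, PYR1 was called at -0.38, 5 members were lower (median -0.31), receptor recruitment genes had 5 higher and 2 lower, and SnRK2 genes had 0 higher. With scaling to 10 reference genes, of which 4 were higher and 3 lower with TMM factors, PYR1 turned to 0.020, PYL8 was called at 0.165 and the members' median was 0.092. Without a filter 2 of the other PYL genes were higher. Leaving out a library gave 0 to 2 receptor recruitment genes lower, with 0 without leaf replicate 2 and 2 without protoplast replicate 2. The cause of these changes was not tested. Leaf and protoplast libraries share replicate numbers but no stated plant or day, and deviations of same-numbered libraries correlated at -0.0793 across genes, which are not independent. The replicate block gave 7782 genes higher and 7868 lower and changed no member's call. With transcript length, chosen after seeing the data, the mean shares of subfamilies I and III in leaf were 41% and 49.4%, and those of I and II in protoplasts 55.6% and 20.9%. PYL2 and PYL10 were called in the same direction throughout, which says nothing of stability, since each passed the filter only through the group where it is high. Depth limits PYL2, PYL3, PYL6, PYL10 and PYL13, which have few or no counts in at least 1 group.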
